A study of Mus musculus with 15 samples.

Results

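Promoters of the genes that encode the splicing machinery were examined for nucleosome positioning. Promoters were taken by the symbol of the transcript they belong to, and all symbols beginning with Srsf, Snrp, Sf3a, Sf3b or Hnrnp were included. This gave 59 of the 25881 annotated promoters in the data, belonging to 52 genes, 1 of which (Hnrnpa1l2-ps2) is named as a pseudogene. Of the 59, 36 promoters of 30 genes had a coverage score above 100, the level above which promoters were tested, and 23 had a score of 100 or below. Srsf genes gave 12 promoters, Snrp genes 14, Sf3a genes 3, Sf3b genes 6 and Hnrnp genes 24. Hnrnpa1 had no matched row and was not analysed here.

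The spliceosome removes introns from nascent transcripts. Snrp genes encode proteins of the small nuclear ribonucleoproteins, among them the Sm core proteins (Snrpb, Snrpd1, Snrpd2, Snrpd3, Snrpe, Snrpf, Snrpg), and Sf3a and Sf3b genes encode complexes of the U2 particle that recognise the branch site. Srsf genes encode serine/arginine-rich proteins that bind exonic enhancers, and Hnrnp genes encode abundant nuclear RNA-binding proteins that package transcripts and modulate splice site choice. Nearly all are housekeeping genes with CpG-rich promoters. At active promoters nucleosomes are depleted over the transcription start site (TSS), a gap termed the nucleosome-depleted region (NDR), and the first nucleosome downstream of it (+1) is well positioned.

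The 15 libraries came from ChIP-MNase, in which cross-linked chromatin is immunoprecipitated as large fragments and then digested with micrococcal nuclease on the beads. Dendritic cells (DCs), differentiated in vitro from mouse bone-marrow progenitor lines, were non-stimulated or given LPS at 100 ng/ml for 1 h, and 3T3 fibroblasts, an established mouse line, were non-stimulated or given TNF-α at 5 ng/ml for 1 h. Each of these 4 conditions is 1 H3K4me1 profile that pools 2 replicates and so has no replicate error. Control fibroblasts and BAF-knockdown fibroblasts, which stably expressed an shRNA directed at both remodelling ATPases, Brg1 and Brm, from a retroviral vector and were sorted by GFP, were each profiled for H3K4me1 with and without TNF-α (2 libraries per group, 8 in all). TNF-stimulated fibroblasts were also profiled with antibodies to RNA polymerase II (pol-II) phosphorylated at serine 7 (S7P, 2 libraries) or serine 5 (S5P, 1 library). The study describes its replicates as independent biological samples, although the labels only number them. The names of the deposited data carry a different tag for both first BAF-knockdown replicates than for the other 6 single H3K4me1 libraries. The tag reads like an MNase amount, but neither the labels nor the study define it. The pol-II libraries were sequenced paired-end and H3K4me1 libraries single-end, so antibody and sequencing cannot be told apart.

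Deposited expression values come from other data than these libraries, which the study lists as public datasets. They followed the named cell types but cannot check the identity of the libraries. The median over 10 DC markers was 16.0 in DCs and 0.150 in fibroblasts, and over 10 fibroblast markers it was 0.0352 and 268. NDR values, defined below, were also read in the pooled non-stimulated sets. The promoters of 7 of 10 DC markers and 7 of 10 fibroblast markers had the lower value in their own cell type. Some of these were depleted there, such as Ptprc (−3.55 in DCs) and Pdgfrb (−3.57 in fibroblasts). Others were not, such as Itgax (0.11 in DCs, 0.30 in fibroblasts), Pdgfra (0.16 in fibroblasts, 0.17 in DCs) and Thy1 (0.18 in fibroblasts, 0.42 in DCs). By these external expression values, 54 of the 59 splicing factor promoters belonged to transcripts expressed in non-stimulated DCs and 50 in non-stimulated fibroblasts. Over all 25881 promoters the counts were 12443 and 10401. Snrpn, a gene mostly used in neurons, and Srsf12 were at or close to 0 in both cell types. Hnrnpd, 1 of 4 Hnrnpf transcripts and 1 of 2 Snrpn transcripts were listed at 0 in fibroblasts along with Srsf12, and Srsf7 and Hnrnpa3 were close to or at 0 in DCs.

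In sequence the members were alike. A CpG island (GC content above 50% and an observed/expected CpG ratio above 0.6 within 200 bp of the TSS) covered 54 of 59 promoters (91.5%), compared with 48.3% of 25735 promoters with sequence and 77.1% of the 6458 high-coverage promoters active in fibroblasts. The 5 without an island were both Snrpn promoters, Srsf12, Hnrnpa1l2-ps2 and 1 of the 4 Hnrnpf promoters, and 4 of these 5 had low coverage. In the 300 bases around the TSS (250 before and 50 after), the ETS core CCGGAAG was present on either strand in 23 of 59 (39%), compared with 11% of all promoters and 21.7% of active ones. The GC box GGGCGG was found in 64.4% of members (45.2% of all, 64.9% of active), CCAAT in 49.2% (37.8% and 38.2%) and TATAAA in 13.6% (12.7% and 6.92%). These matches are descriptions of sequence and not evidence of binding.

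The 5 promoters that span the range of patterns described below are shown as the 200 bases upstream of the TSS in build mm9, 5′ to 3′ on the strand of the gene, with any CCGGAAG or its reverse complement CTTCCGG in capitals. Sf3b6 had the deepest NDR of the high-coverage members and carries the ETS core on both strands starting 86 and 71 bases before the TSS. Snrpg had the highest mean patterning level. Srsf5 had among the largest TNF-associated differences and carries ETS cores starting 96 and 29 bases before the TSS. Sf3b3 had almost no NDR in the 8 single libraries, and its upstream sequence is AT-rich, with a GC content of 39.5% and 6 CpG dinucleotides. Snrpn (transcript NM_001082961) represents the silent members without an island and has 3 CpG dinucleotides, against 15 in Sf3b6, 21 in Snrpg and 15 in Srsf5.
Sf3b6 (chr12:4824215-4824414, + strand): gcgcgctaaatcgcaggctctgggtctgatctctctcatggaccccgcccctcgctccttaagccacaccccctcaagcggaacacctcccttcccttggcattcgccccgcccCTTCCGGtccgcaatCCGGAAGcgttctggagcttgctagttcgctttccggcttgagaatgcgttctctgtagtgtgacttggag
Snrpg (chr6:86321335-86321534, + strand): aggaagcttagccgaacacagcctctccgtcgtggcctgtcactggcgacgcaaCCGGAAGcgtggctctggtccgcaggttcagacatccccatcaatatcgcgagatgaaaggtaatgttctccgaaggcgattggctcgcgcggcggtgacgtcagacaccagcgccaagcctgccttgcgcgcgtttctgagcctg
Srsf5 (chr12:82046292-82046491, + strand): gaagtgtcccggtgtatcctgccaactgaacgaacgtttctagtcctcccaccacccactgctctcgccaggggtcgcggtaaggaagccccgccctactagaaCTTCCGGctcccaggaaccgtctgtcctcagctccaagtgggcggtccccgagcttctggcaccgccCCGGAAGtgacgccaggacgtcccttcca
Sf3b3 (chr8:113370704-113370903, - strand): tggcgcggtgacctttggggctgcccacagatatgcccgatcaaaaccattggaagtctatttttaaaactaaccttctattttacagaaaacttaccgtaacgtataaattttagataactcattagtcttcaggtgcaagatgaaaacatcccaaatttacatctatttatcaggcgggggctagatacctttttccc
Snrpn (chr7:67242495-67242694, - strand): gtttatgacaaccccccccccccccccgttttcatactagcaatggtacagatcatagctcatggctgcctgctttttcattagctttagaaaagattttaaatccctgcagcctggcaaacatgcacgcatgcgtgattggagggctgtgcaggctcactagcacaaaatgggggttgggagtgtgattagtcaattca

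Splicing factor promoters had deep NDRs. Depletion was measured as the NDR value, the log2 ratio of mean occupancy from −150 to 0 bp to mean occupancy from −1000 to −500 bp, and a promoter was called depleted where the value was below −1. On the mean of the 8 single H3K4me1 libraries, 31 of 36 high-coverage members were depleted (86.1%), with a median NDR value of −1.59. Over all high-coverage promoters the share was 44.2% (n = 13427, median −0.83). Over those active in fibroblasts it was 62.1% (n = 6455, median −1.34), and over those of non-expressed genes it was 19% (n = 2179, median −0.27). The medians for cytosolic ribosomal protein and proteasome promoters, other housekeeping sets, were −1.38 (n = 71) and −1.50 (n = 24). Promoters of 66 other genes of the splicing pathway, among them the U2af, Prpf and Dhx families, gave 53 with high coverage, of which 42 were depleted (79.2%, median −1.62). No promoter of either splicing set passed any of the tests of condition below.

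**Figure D1:**
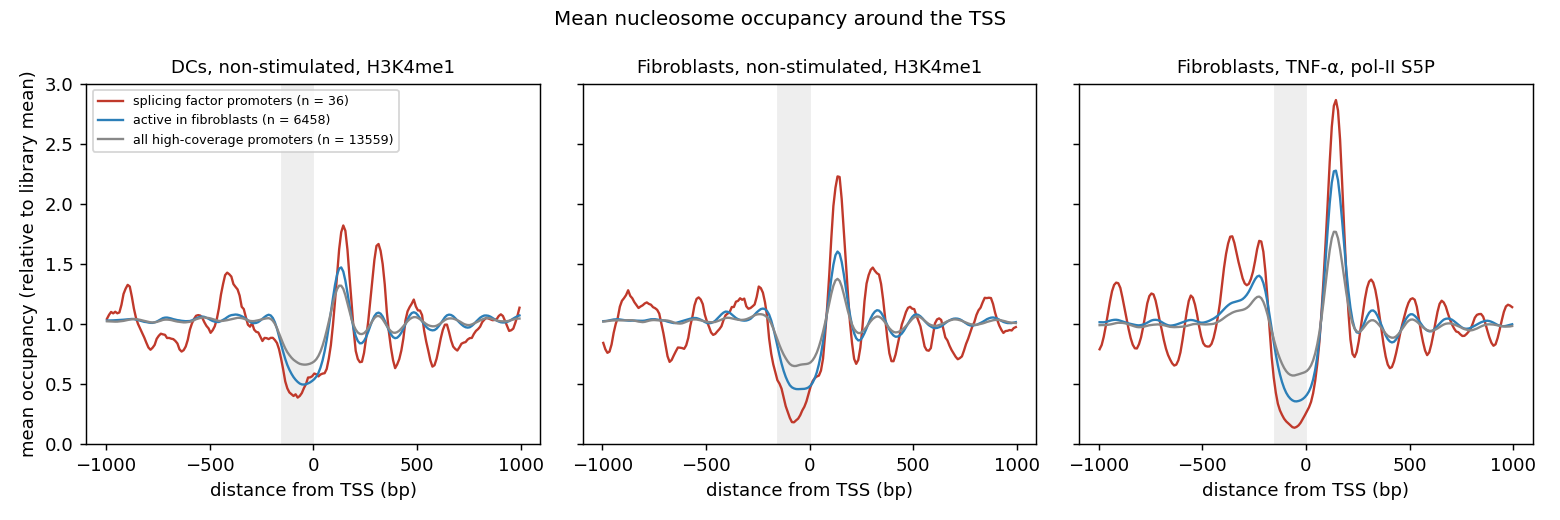
Mean nucleosome occupancy relative to the library mean (y axis) against distance from the TSS in bp (x axis) for 36 high-coverage splicing factor promoters, 6458 promoters active in fibroblasts and all 13559 high-coverage promoters, in pooled non-stimulated DCs, pooled non-stimulated fibroblasts and the pol-II S5P library. The grey band is the NDR window. In fibroblasts the splicing factor curve reached 0.183 in the gap and 2.23 at the +1 nucleosome, while the curve of all promoters reached 0.652 and 1.38.

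Mean profiles were also compared. In non-stimulated fibroblasts, occupancy in the NDR window was 29.8% of that in the upstream flank at splicing factor promoters, 50.2% at active promoters and 67.4% at all promoters. In non-stimulated DCs these values were 48.4%, 54.8% and 68.7%. In the 8 single libraries the members were at 37.7% to 66.2% of the flank and active promoters at 52.9% to 69.9%. The members were below active promoters in 7 of these 8, by little in the second non-stimulated BAF-knockdown library (66.2% against 67.7%), and above them in the second stimulated control library (65.8% against 58.5%). The peak of the +1 nucleosome lay 135 to 155 bp downstream of the TSS in the mean profile of the members in the 4 pooled sets and 135 to 175 bp in the 8 single libraries, against 125 to 135 bp and 135 bp for all promoters. For active promoters this position was 135 bp and 135 to 145 bp, and for ribosomal protein promoters 145 bp and 135 to 155 bp. Proteasome promoters gave 135 to 155 bp and 125 to 155 bp. Other splicing genes gave 135 to 155 bp and 105 to 155 bp. Positions were read in bins of 10 bp. At single promoters the strongest downstream bin lay within 20 bp of 135 bp in 19 of 36 members in non-stimulated DCs (52.8%, against 30.1% of all) and 15 of 36 in non-stimulated fibroblasts (41.7% against 29.8%). In the control libraries the count was between 11 and 18 of 36 (30.6% to 50%, against 23.9% to 25.1% of all). In the BAF-knockdown libraries it was between 9 and 15 (25% to 41.7%, against 25% to 26.1% of all), and in 2 of these 4 the share of the members was below that of all promoters.

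Members differed in how many libraries showed the gap. NDR values were below −1 in at least 4 of the 8 single libraries in 26 of 36 members (72.2%, against 39.4% of all promoters) and in at least 6 in 12 members (33.3% against 16.2%). No high-coverage member was below −1 in all 8. The within-group SD of the NDR value had a median of 1.26 among the members and 1.13 over all promoters, so single values vary widely. Windows without any signal give values near −3.5 through the pseudocount of 0.1. Such empty windows were seen in 10 to 20 of 36 members in the 4 pooled H3K4me1 sets (27.8% to 55.6%), compared with 7.22% to 19.2% of all high-coverage promoters and 10.4% to 29.5% of active ones. In the 8 single libraries they were seen in 5 to 20 members (13.9% to 55.6%, all promoters 12.6% to 26.2%).

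**Figure D2:**
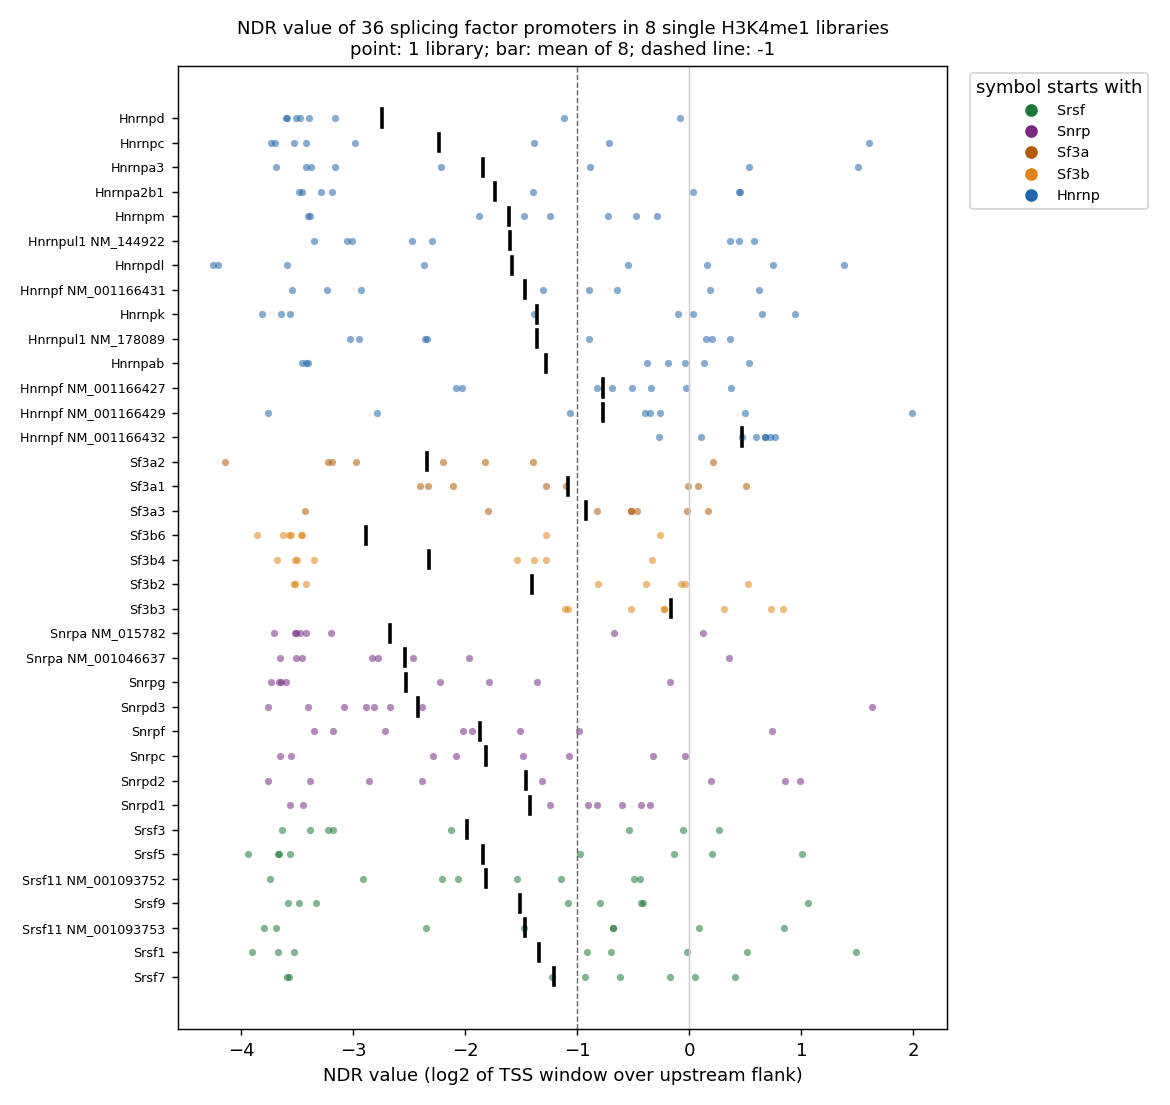
NDR value (x axis, log2) of each of the 36 high-coverage splicing factor promoters (rows, grouped by symbol and ordered by mean) in the 8 single H3K4me1 fibroblast libraries. Points are libraries, black bars their mean and the dashed line the value −1; 31 bars lie left of the line, and most promoters have points both near −3.5 and above −1.

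Among the proteins of the small nuclear ribonucleoproteins, all 8 high-coverage Snrp promoters were depleted, with a median NDR value of −2.15. The lowest mean was at Snrpa, which encodes a protein of the U1 particle. Its TSS for NM_015782 had values between −3.71 and 0.12 with a median of −3.45 and a mean of −2.67, and its second TSS, 511 bp away and sharing part of the measured region, had a mean of −2.54. The highest mean was at Snrpd1, an Sm core protein gene, with values between −3.56 and −0.35, a median of −0.87 and a mean of −1.42. Snrpg, another Sm core protein gene, had values from −3.74 to −0.17 with a median of −2.91. Its within-group SD of 0.45 was the smallest among the depleted high-coverage members.

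Promoters of the Sf3b complex, which contacts the branch site, differed widely. Sf3b6 was below −1 in 7 of 8 libraries, with values between −3.86 and −0.26, a median of −3.51 and a mean of −2.89. Sf3b3 was below −1 in 2 of 8, with values between −1.11 and 0.84, a median of −0.23 and a mean of −0.16. In the pooled sets Sf3b3 had −3.20 in non-stimulated DCs and −0.74 in non-stimulated fibroblasts. Sf3b4 had a mean of −2.33 and Sf3b2 of −1.41. Of the 3 Sf3a promoters, Sf3a2 had a median of −2.59 and a range of −4.15 to 0.22. Sf3a3 had a median of −0.52 and a range of −3.43 to 0.17, and Sf3a1 a median of −1.19 and a range of −2.40 to 0.51.

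All 7 high-coverage Srsf promoters were depleted, over a narrow range of means from −1.99 to −1.21. Srsf3 was lowest, with a range of −3.64 to 0.27 and a median of −2.66, and Srsf7 highest, with a range of −3.59 to 0.41 and a median of −0.77. Srsf1, the founding member of the family, had values between −3.91 and 1.49 with a median of −0.81 and the widest within-group SD of the 59 members, 2.72.

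Of the 14 high-coverage Hnrnp promoters, 11 were depleted, with a median of −1.53. Hnrnpd, which encodes the AU-rich element binding protein AUF1, was lowest with a range of −3.60 to −0.08 and a median of −3.44, although its transcript was listed at 0 in fibroblasts. Hnrnpa2b1 had a range of −3.48 to 0.45 and a median of −2.29, and Hnrnpk a range of −3.82 to 0.94 and a median of −0.74. The 3 promoters above −1 all belonged to Hnrnpf, whose 4 annotated starts differed. The most upstream start, NM_001166432, is not in a CpG island and had values between −0.27 and 0.77 with a median of 0.64. The next start, NM_001166431, had a mean of −1.47 and a transcript level of 10.1 in DCs. The remaining starts, NM_001166429 and NM_001166427, both had a mean of −0.77, and the first of these lies 1022 bp from NM_001166431 and shares part of its window. The 2 Hnrnpul1 starts lie 19 bp apart and are not independent, with means of −1.60 and −1.36.

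The 23 low-coverage members were not tested and are described only. Their mean NDR value was below −1 in 18 (78.3%), compared with 35.2% of all low-coverage promoters and 63.2% of low-coverage promoters active in fibroblasts. Values were −3.24 at Hnrnph2, −3.12 at Srsf10, −2.87 at Sf3b1, −2.46 at Hnrnph3, −2.38 at Srsf4, −2.37 at Hnrnpl, −2.34 at Sf3b5 and −2.27 at Hnrnpu. Further values were −2.11 at Hnrnpul2, −2.08 at Hnrnpll, −1.97 at Srsf2, −1.86 at Hnrnpa0, −1.75 at Hnrnph1, −1.69 at Snrpb, −1.62 at Snrpe, −1.51 at Hnrnpr, −1.45 at Snrpb2 and −1.06 at Srsf6. The 5 that were not depleted were Snrpn (0.60 and 0.13), Srsf12 (0.32), Snrpa1 (0.21) and Hnrnpa1l2-ps2 (−0.27), and of these Snrpa1 alone was expressed in both cell types. Hnrnph2 was below −1 in 8 of 8 libraries, with a range of −3.83 to −2.24. Sf3b1, the largest subunit of the Sf3b complex, had a median of −3.54. Srsf2 had a median of −3.11, Hnrnpu of −3.45 and Snrpb of −1.53. The threshold of 100 separated close neighbours, with Sf3b1 and Srsf10 just below it (95.2 and 95.0) and Srsf1 just above it (101).

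The whole pattern around the TSS was measured as the patterning level, in which a promoter scores high when its occupancy follows the mean shape of active promoters. The median over the 36 members was 7.64 in non-stimulated DCs, 10.8 in non-stimulated fibroblasts and 14.2 in the S5P library, compared with 3.44, 3.51 and 5.79 over all promoters and 5.69, 6.43 and 10.5 over active ones. Proteasome promoters gave 8.88, 11.03 and 15.4 in the same order, each above the members. Ribosomal protein promoters gave 7.72, 6.34 and 14.05, and other splicing genes 6.68, 8.78 and 11.98. In the 8 single libraries the median of the members lay between 4.13 and 9.66, and that of all promoters between 2.36 and 3.39. In these libraries the range was 5.57 to 9.66 at ribosomal protein, 5.16 to 11.7 at proteasome and 4.54 to 8.34 at other splicing gene promoters. Snrpg had the highest mean over these libraries (15.8), followed by Snrpd1 (14.2) and Hnrnpd (13.9). The lowest high-coverage means were at Hnrnpdl (−2.40) and the most upstream Hnrnpf start (−2.09).

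TNF stimulation of fibroblasts was compared across the 8 single libraries, with 4 non-stimulated and 4 stimulated, to ask whether NDRs change during activation. By limma with Benjamini-Hochberg adjustment, 0 of 13309 promoters passed (0%), members included, and the lowest adjusted p of a member was 0.94. At an unadjusted p below 0.05, 7 of 36 members were found (19.4%), against 4.79% of all promoters. In 6 of these 7 the value was lower with TNF-α, and in these 6 the stimulated and non-stimulated libraries did not overlap. Such separation in the lower direction was seen in 1.95% of all promoters. The median difference was −0.25 over the members and −0.09 over all promoters. These summaries rest on single libraries. The count of 7 was 4 without the second stimulated control library. The median of the members was −0.71 and −0.08 without the second and first non-stimulated control libraries, −0.60 and −0.57 without the first and second stimulated control libraries, −0.08 without the second stimulated BAF-knockdown library and −0.01 over the 17 members with a coverage score above 200.

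Hnrnpdl, which encodes a paralogue of Hnrnpd, had the lowest p. Its NDR values were −0.55 and 1.38 in non-stimulated control cells, 0.16 and 0.75 in non-stimulated BAF-knockdown cells, −2.37 and −3.59 in stimulated control cells and −4.21 and −4.25 in stimulated BAF-knockdown cells. The difference was −4.04 ± 0.97 (SE, unadjusted p = 0.00139 and adjusted p = 0.94 by limma). All 4 stimulated libraries lay below all 4 non-stimulated ones.

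Srsf5 showed the same order. Its values were −0.98, 1.01, −0.13 and 0.20 without TNF-α and −3.67, −3.68, −3.57 and −3.94 with it, the latter all at or near an empty window. The difference was −3.73 ± 0.92 (SE, unadjusted p = 0.00180 and adjusted p = 0.94 by limma), and it was −1.80 when the window was moved to −100 to 50 bp.

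Hnrnpk encodes an abundant poly(C)-binding protein. Its values were 0.04, 0.65, 0.94 and −0.10 without TNF-α and −1.38, −3.57, −3.64 and −3.82 with it, a difference of −3.48 ± 0.94 (SE, unadjusted p = 0.00313 by limma). Snrpg had −1.36, −0.17, −1.79 and −2.23 without and −3.67, −3.65, −3.60 and −3.74 with TNF-α, a difference of −2.28 ± 0.70 (SE, unadjusted p = 0.00745 by limma) that was −1.51 with the moved window. Hnrnpc, which encodes the core hnRNP particle proteins C1 and C2, had −0.72, 1.61, −2.99 and −1.38 without and −3.42, −3.70, −3.53 and −3.74 with TNF-α, a difference of −2.73 ± 0.96 (SE, unadjusted p = 0.0152 by limma). The adjusted p of these 3 was 0.94. The other members with an unadjusted p below 0.05 were Sf3a2 (−2.08) and, in the other direction, Snrpd2 (2.74).

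The pooled fibroblast sets, which were not used in that comparison, showed a difference of more than 1 in the same direction at 1 of these 7 members. Non-stimulated and TNF-stimulated pooled values were 0.02 and 0.01 at Hnrnpdl, −3.62 and −3.47 at Srsf5, −1.97 and 0.49 at Hnrnpk, −3.34 and −3.75 at Snrpg, −1.67 and −3.51 at Hnrnpc, −3.34 and −1.55 at Sf3a2 and 2.37 and −3.47 at Snrpd2. Hnrnpc thus differed in the same direction there, while Hnrnpk, Sf3a2 and Snrpd2 differed by more than 1 in the opposite direction. The pooled sets have no replicate error, and the difference between them and the single libraries was not tested.

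BAF knockdown was compared across the same 8 libraries, to ask which NDRs depend on the Brg1 and Brm remodellers. The promoter values do not measure the knockdown itself, which cannot be checked in these data. By limma 0 of 13309 promoters passed (0%), and 2 of 36 members had an unadjusted p below 0.05 (4.50% of all promoters did). The share of the members was thus close to that of all promoters. Without both first BAF-knockdown replicates, whose names carry the other tag, 0 members had an unadjusted p below 0.05. The median difference was 0.11 over the members and 0.01 over all, and that of the members lay between −0.22 and 0.23 when each library was left out in turn, being below 0 without the second non-stimulated control library or either non-stimulated BAF-knockdown library. Srsf3 and 1 of the 2 Srsf11 starts were the 2 members, in opposite directions, and also the 2 whose knockdown and control libraries did not overlap (1.31% of all promoters lower, 1.39% higher).

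Srsf3, which encodes the smallest protein of the family, had NDR values of −0.06, −2.13, −0.54 and 0.27 in control libraries and −3.39, −3.18, −3.22 and −3.64 in BAF-knockdown libraries. The gap was thus empty or nearly so in all 4 knockdown libraries. The difference was −2.74 ± 0.93 (SE, unadjusted p = 0.0124 and adjusted p = 0.96 by limma) and it was −0.31 with the window from −100 to 50 bp, so it rests on where the window was set. Without the first replicates of the knockdown the difference was −2.79.

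Srsf11 (NM_001093753), an SR-related protein gene, had −3.69, −1.48, −2.36 and −3.80 in control libraries and −0.68, −0.68, 0.09 and 0.85 in BAF-knockdown libraries. The gap was thus present in every control library and absent by the threshold of −1 in every knockdown library. The difference was 2.72 ± 0.98 (SE, unadjusted p = 0.0177 and adjusted p = 0.96 by limma), 2.66 with the moved window and 2.91 without the first knockdown replicates. Its patterning level was 22.5, 12.8, 18.7 and 24.2 in control and 8.23, 1.21, 0.68 and −9.41 in knockdown libraries, a difference of −19.4 ± 4.47 (SE, unadjusted p = 0.00340 and adjusted p = 0.82 by limma). In the pooled fibroblast sets its NDR value was −1.91 without and −2.42 with TNF-α. The second Srsf11 start, NM_001093752, did not show this, with −0.44, −2.92, −1.14 and −2.21 in control and −2.06, −0.50, −1.54 and −3.74 in knockdown libraries.

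The next members by p were Snrpd3 (−1.62 ± 1.01, SE), Srsf7 (1.58 ± 1.06, SE) and Hnrnpc (−1.35 ± 0.96, SE), with unadjusted p of 0.135, 0.164 and 0.184 by limma. Their control and knockdown libraries overlapped. For Hnrnpc the TNF comparison above gave the lower p.

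**Figure D3:**
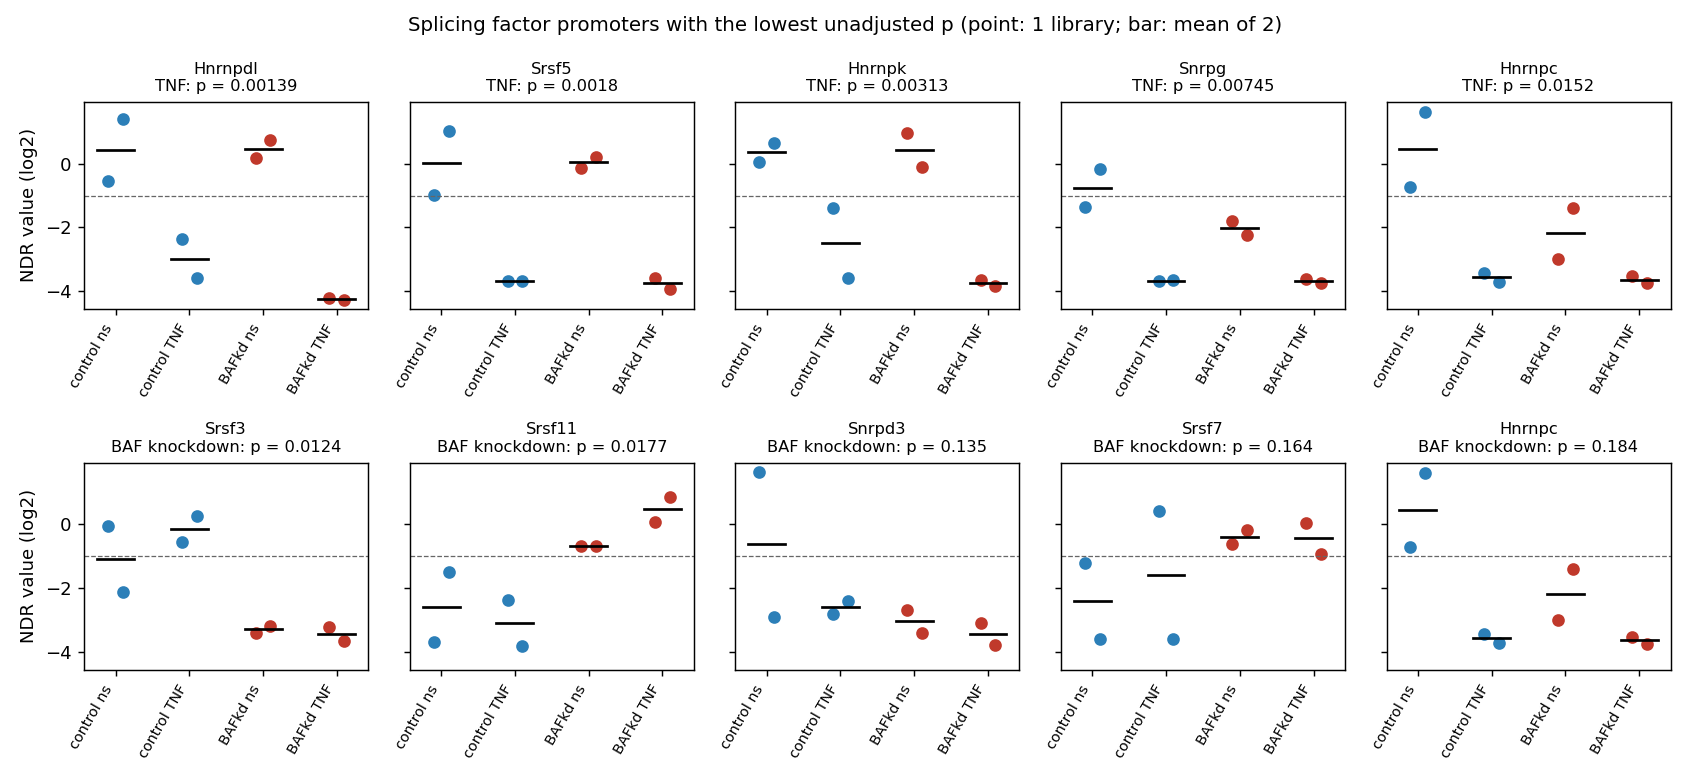
NDR value (y axis, log2) in each of the 8 single H3K4me1 libraries by group (x axis, ns for non-stimulated) at the 5 splicing factor promoters with the lowest unadjusted p for TNF (top) and for BAF knockdown (bottom). Points are libraries and bars the mean of 2; the Srsf11 panel is NM_001093753. Srsf3 and Srsf11 separate control (blue) from BAF knockdown (red) in opposite directions, and none passed adjustment over all promoters.

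Whether TNF-α acted differently after BAF knockdown was tested as an interaction. By limma 0 of 13309 promoters passed (0%), and 2 of 36 members had an unadjusted p below 0.05, with a lowest adjusted p of 0.94. The share of the members was close to the 4.95% of all promoters. The median interaction was −0.98 over the members and −0.19 over all. The median of the members was −0.10 and −1.61 without the second and first non-stimulated control libraries, −0.46 without the first stimulated control library, −0.49 without the second stimulated BAF-knockdown library and −0.30 with the moved window. The 2 members, named after their values were seen, were Hnrnpa3 and Hnrnpul1 (NM_144922). Hnrnpa3 had −3.38 and −3.42 in non-stimulated control, −0.89 and 1.51 in stimulated control, −2.22 and 0.53 in non-stimulated knockdown and −3.69 and −3.16 in stimulated knockdown libraries. For the patterning level, by limma 0 of 13559 promoters passed in any comparison (0%). At an unadjusted p below 0.05 there were 3 members for TNF-α (Hnrnpk, Hnrnpc and Hnrnpdl, all higher, 5.63% of all promoters), 1 for BAF knockdown (Srsf11, 5.84% of all) and 0 for the interaction (5.66% of all). The counts for BAF knockdown and the interaction were below the shares of all promoters. The median difference in patterning level with BAF knockdown was −1.66 over the members and 0.08 over all promoters. The median of the members was 0.02 without the second non-stimulated control library, −0.26 without the first stimulated control library, −0.92 without the second non-stimulated BAF-knockdown library and −0.32 on the square root of occupancy.

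In the pooled sets a difference of more than 1 in the NDR value was counted, without a test. With LPS in DCs, 8 of 36 members were lower by more than 1 (22.2%, against 19.5% of all promoters) and 5 higher (13.9% against 13.7%). Both shares were near those of all promoters. The largest decreases were at Hnrnpf, from 0.72 to −3.32 at NM_001166431 and from −0.11 to −3.69 at NM_001166429, followed by Snrpd1 from −0.63 to −3.31. In the other direction Hnrnpul1 (NM_178089) went from −2.51 to 0.24, Sf3b3 from −3.20 to −0.59 and Srsf3 from −3.42 to −0.84. With the window from −100 to 50 bp the difference at Snrpd1 was −1.15 in place of −2.68, that at Hnrnpul1 1.04 in place of 2.75, and that at Sf3b3 reversed to −0.33 from 2.61. The gap was present by the threshold of −1 in both sets at 17 members (47.2%, against 25.4% of all promoters), after LPS only at 9 (25% against 14.4%), before LPS only at 4 (11.1% against 11.4%) and in neither at 6 (16.7% against 48.8%).

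With TNF-α in the pooled fibroblasts, 12 of 36 members were lower by more than 1 (33.3%, against 21.7% of all promoters) and 4 higher (11.1% against 14.3%). The median NDR value of the members went from −2.29 to −3.29, while the median difference per promoter was −0.41 (−0.09 over all promoters). The set median went from −1.55 to −2.93 at other splicing genes and from −1.67 to −2.67 at ribosomal protein promoters. At proteasome promoters it went the other way, from −2.33 to −1.46. The largest decreases were at Snrpd2 (from 2.37 to −3.47), Hnrnpab (from −0.12 to −3.62) and Sf3a3 (from −1.15 to −3.47). The largest increases were at Hnrnpk (from −1.97 to 0.49), Sf3a2 (from −3.34 to −1.55) and Snrpd1 (from −2.34 to −0.58). With the moved window the difference at Snrpd2 was −2.75 in place of −5.84 and that at Sf3a2 0.66 in place of 1.79. The gap was present by the threshold of −1 with and without TNF-α at 24 members (66.7%, against 27.8% of all promoters), with TNF-α only at 6 (16.7% against 14.8%), without it only at 3 (8.33% against 10.5%) and in neither set at 3 (8.33% against 46.9%). Empty windows were seen in 10 of the 36 members without and 20 with TNF-α. Bins with signal over all promoters were 87.3% and 82.0%, and the part of this in the differences was not tested.

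Between cell types, non-stimulated fibroblasts were lower than non-stimulated DCs by more than 1 at 13 of 36 members (36.1%, against 20.4% of all promoters) and higher at 8 (22.2% against 16%). Lower in fibroblasts were Hnrnpf NM_001166431 (−3.61 against 0.72), Srsf1 (−3.53 against 0.55) and Snrpa NM_015782 (−3.13 against −0.35). Lower in DCs were Hnrnpab (−3.40 against −0.12), Srsf3 (−3.42 against −0.16) and Sf3b3 (−3.20 against −0.74). With the moved window Sf3b3 reversed, to −1.47 for fibroblasts minus DCs from 2.46. A total of 16 members were depleted in both cell types (44.4%, against 23.4% of all promoters), 11 in fibroblasts only by this threshold (30.6% against 15%), 5 in DCs only (13.9% against 13.4%) and 4 in neither (11.1% against 48.2%). These comparisons share the non-stimulated sets with those above.

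The pol-II profiles enrich for alleles that carry polymerase. In the S5P library from TNF-stimulated fibroblasts 33 of 36 members were depleted (91.7%, active promoters 64.0%, all promoters 48.3%). The share was 78.9% of cytosolic ribosomal protein and 75% of proteasome promoters. Occupancy in the NDR window was 21.5% of the flank at the members (active promoters 44.4%, all promoters 63.6%). It was 29.5% at ribosomal protein and 44.3% at proteasome promoters. The pooled TNF-stimulated H3K4me1 set had 30 members depleted (83.3%, against 60.1% of active and 42.6% of all promoters). Over the members its window was at 20.97% of the flank, and its median NDR value was lower than in S5P (−3.29 against −2.25). The window was empty at 20 of the 36 members in that set (55.6%, against 19.2% of all promoters). In S5P it was empty at 1 member (2.78%, against 11.7% of all). The +1 nucleosome of the members reached 2.87 times the library mean in S5P, against 2.28 for active and 1.77 for all promoters. Ribosomal protein promoters reached 2.81 and proteasome promoters 3.22. The 3 members above −1 in S5P were Hnrnpf NM_001166432 (0.59), Hnrnpdl (−0.05) and Snrpa NM_015782 (−0.79). Srsf3, Snrpg and Sf3b1 had −2.92, −3.02 and −3.48.

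Against pooled TNF-stimulated H3K4me1, S5P values were higher by more than 1 at 13 members (36.1%, against 23.1% of all promoters) and lower at 3 (8.33% against 20.1%). Empty windows were more frequent in that H3K4me1 set, as given above, and their part in these differences was not tested. Snrpd2 (−1.09 against −3.47), Hnrnpf NM_001166429 (−1.43 against −3.76) and Hnrnpd (−1.74 against −3.69) were higher in S5P. Hnrnpk (−3.0 against 0.49), Snrpd1 (−2.23 against −0.58) and Srsf3 (−2.92 against −1.37) were lower, and the difference at Srsf3 was −2.95 in place of −1.55 with the moved window. By the threshold of −1, 29 members were depleted in both (80.6%, against 32.5% of all promoters), 4 in S5P only (11.1% against 16.4%), 1 in H3K4me1 only (2.78% against 10.4%) and 2 in neither (5.56% against 40.7%).

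The S7P libraries had shallower gaps. Members below −1 numbered 11 and 16 of 36 (30.6% and 44.4%), with medians of −0.65 and −0.72. All promoters had 34.2% and 30.7% with medians of −0.45 and −0.43, and active promoters 33.4% and 34.5% with medians of −0.52 and −0.60. Compared with the 2 stimulated control H3K4me1 libraries, the median difference in S7P was 0.97 over the members and 0.20 over all promoters. Those control libraries came from the controls of the BAF knockdown, whereas the S7P labels name no control cells. Antibody, sequencing and any difference between these cells cannot be told apart. In those control libraries 13 and 16 of 36 members had an empty window (36.1% and 44.4%, against 15.6% and 26.2% of all promoters). In each S7P library 2 members did (5.56%, against 15.5% and 8.72% of all). The part of empty windows in the difference was not tested. By limma 0 of 13336 promoters passed (0%), with a lowest adjusted p of 0.59 among members, and 5 of 36 had an unadjusted p below 0.05 (8.26% of all promoters did). Without the second stimulated control library 1 member had such a p, and the median difference was 0.52 over the members and −0.01 over all. In the fit with every library the 5 were Hnrnpc (3.23), Srsf5 (2.90), Snrpg (2.88) and Sf3a2 (2.68), higher in S7P, and Snrpd2 (−1.43), lower, all named after their values were seen. All 5 were also among the 7 members with an unadjusted p below 0.05 for TNF-α, and both comparisons use the stimulated control libraries. For the patterning level 2 members had an unadjusted p below 0.05 (6.08% of all promoters did), Srsf11 NM_001093752 (−9.82) and Snrpd2 (12.3). Srsf5 had −0.82 and −0.73 in S7P and −3.40 in S5P, and Snrpf was deep in all 3 pol-II libraries, with −3.29, −2.91 and −2.87.

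Coverage of the members differed between the antibodies. In the 4 pooled H3K4me1 sets the high-coverage members had signal in 69.8% to 80.5% of their 10 bp bins on average, below the 82.0% to 90.2% of all high-coverage promoters. In the 3 pol-II libraries the order was the opposite, with 89.3% to 93.4% against 69.2% to 81.2%. Active promoters gave 79% to 90.6% in the pol-II libraries and 79.1% to 89.6% in the pooled H3K4me1 sets. Low-coverage members gave 78.9% to 84.6% in the pol-II libraries and 61% to 71.8% in the pooled H3K4me1 sets. Empty windows were rare in the pol-II libraries, at 1 or 2 of the 36 members (2.78% to 5.56%, against 8.72% to 15.5% of all promoters). Bins with signal stand in for depth here, since the values carry no read counts. In the pooled H3K4me1 sets the members thus had both fewer covered bins and more empty windows than all promoters. In the single H3K4me1 libraries they had fewer covered bins in 7 of 8 and the same share as all promoters, 78.1%, in the first non-stimulated BAF-knockdown library. The part of coverage in the depth of the NDR was not tested. In the pol-II libraries coverage of the members was above that of all promoters. There the gap was present in 33 of 36 members in S5P and in 11 and 16 of 36 in S7P.

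**Figure D4:**
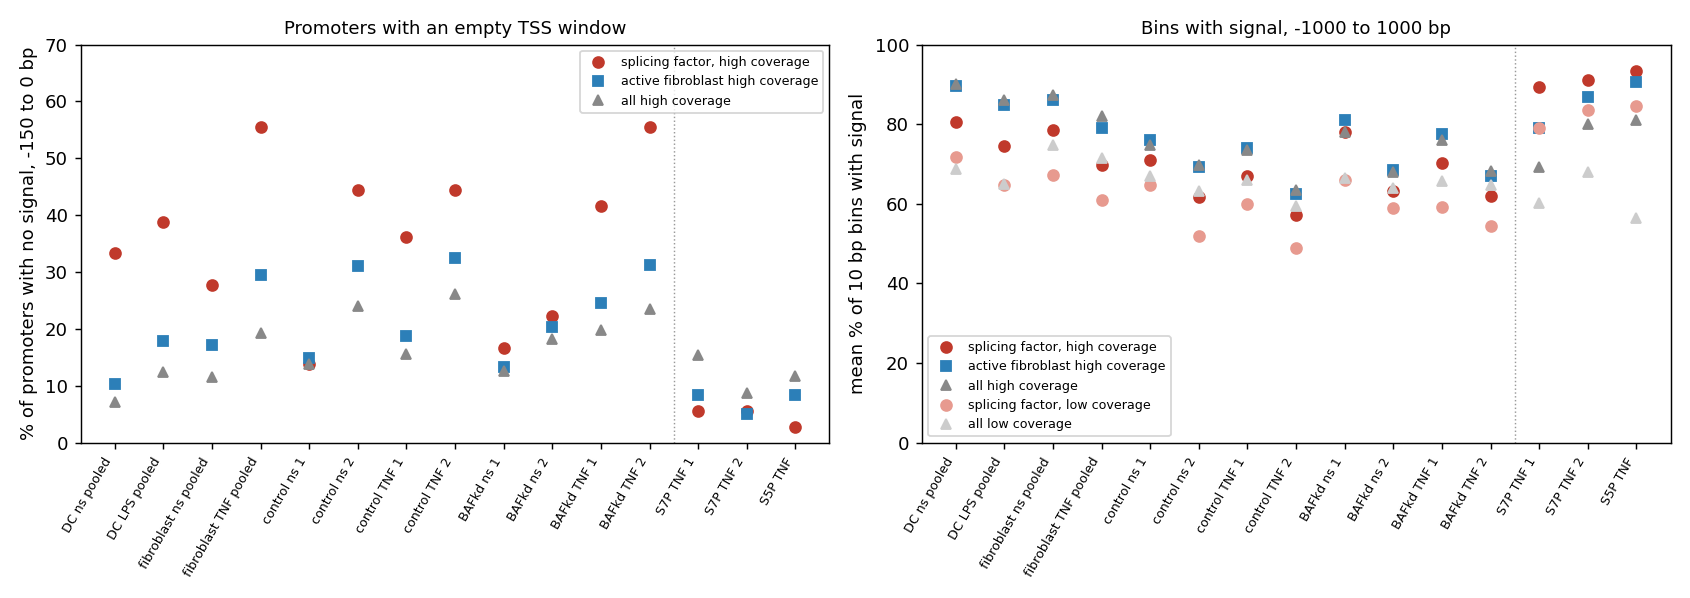
Left, percentage of promoters with no signal between −150 and 0 bp in each of the 15 libraries (x axis) for high-coverage splicing factor promoters (n = 36), promoters active in fibroblasts (n = 6458) and all promoters (n = 13559); right, mean percentage of 10 bp bins with signal from −1000 to 1000 bp, with low-coverage promoters added (23 members, 12322 in all). The dotted line separates the 12 H3K4me1 libraries from the 3 pol-II libraries. On the right the splicing factor points lie below those of all promoters in the pooled H3K4me1 sets and above them in the pol-II libraries.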

How the data were processed

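The authors aligned ChIP-MNase reads to mm9 and made the deposited files, in which each promoter has 200 bins of 10 bp from −1000 to 1000 bp around the TSS. Their values are nucleosome occupancy signal, which the authors smoothed over 50 bp and normalised in a sliding 1 kb window. That normalisation removes differences in overall coverage between promoters. The deposited promoter list gives a coverage score and, from other data, expression signal for non-stimulated cells. It also holds 2 columns of the authors' own comparison (inducibility) that were not used. Bowtie2 is named in the submitters' processing notes and bowtie in the study's methods, and which of them made these data is not settled here. The study gives an overall range of read depths, but the deposited values hold no read counts per library, so depth could not be set beside each value.

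Of 25881 RefSeq names, 25383 (98.1%) matched a symbol. Occupancy was divided by each library's mean over promoters with a score above 100, and 0.1 was added to both means of the NDR value. A promoter without signal in a library had no NDR value there and was left out of that fit. A promoter counted as active where its expression was above 0.02 times the mean. The 36 members above 100 were fitted with all other such promoters in limma (lmFit, eBayes with trend, two-sided, Benjamini-Hochberg, threshold 0.05), which was tested on simulated data. Replicates of a group correlated weakly, with Spearman's rho of 0.25 to 0.37 for NDR values across promoters. Sequences and motifs came from the mm9 reference genome. Analyses used Python 3.11.15, pandas 2.3.3, R 4.3.3 and limma 3.58.1. The members and lists were chosen with earlier results of these data known. Named were members passing a test, the lowest and highest NDR value per family, the 3 largest differences each way in each pooled comparison, members with a score of 100 or below, 12 well-known members and the 5 lowest p for TNF and for BAF knockdown.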

Additional observations from a re-analysis of the deposited data

How the results depend on the processing

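Under every alternative run for the 8 limma comparisons, 0 members passed, including when each library was left out in turn (0 to 0 members in each comparison). The adjusted p of the NDR value depended on the mean-variance trend. Without it the lowest adjusted p of a member by limma was 0.147 for TNF-α in place of 0.94. It was 0.62 for BAF knockdown in place of 0.96, 0.60 for the interaction in place of 0.94 and 0.33 for S7P in place of 0.59. Deviations of same-numbered libraries correlated between −0.02 and 0.03 across promoters. Replicates of a group correlated only weakly, so this check cannot tell whether replicate numbers pair the samples. With the replicate block 0 members passed in any comparison (6 of 13336 promoters passed for S7P, against 0 without it). At an unadjusted p below 0.05, leaving out each library in turn gave 4 to 7 members for TNF-α in place of 7, 1 to 3 for BAF knockdown in place of 2, 1 to 4 for their interaction in place of 2 and 1 to 5 for S7P in place of 5 (3 with the replicate block). For the patterning level these were 0 to 4 in place of 3, 1 to 2 in place of 1, 0 to 3 in place of 0 and 0 to 7 in place of 2. The count of 31 depleted members ranged from 27 to 33 under the other settings, which were chosen for this count after seeing the data (27 with a pseudocount of 0.2, 28 with the window from −100 to 50 bp, 33 with flanks on both sides, and 28 to 32 when each library was left out in turn).

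Counts in the pooled comparisons moved more. With the window from −100 to 50 bp, 13 members were lower with LPS in place of 8, 7 higher with TNF-α in place of 4, and S5P against H3K4me1 gave 5 lower in place of 3 and 8 higher in place of 13. With a pseudocount of 0.2, 5 members were higher in fibroblasts than DCs in place of 8, and 7 higher in S5P in place of 13. With occupancy as deposited 20 were higher in S5P, and with flanks on both sides 5 were lower. With a threshold of 0.5, 17 were lower with LPS and 6 lower in S5P. Sf3b3 reversed with the moved window, from 2.61 to −0.33 for LPS in DCs and from 2.46 to −1.47 for fibroblasts against DCs. The cause was not tested. Coverage and 2 libraries a group limit all of these values.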

Other observations

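Some splicing factor promoters face another gene. A second annotated TSS on the opposite strand lay within 1000 bp upstream at 15 of the 59 promoters (25.4%), compared with 9.15% of all 25881. Among those with high coverage it was 11 of 36 (30.6%), against 16.0% of all and 22.9% of active promoters. The share was similar at other splicing genes (16 of 53, 30.2%) and proteasome promoters (7 of 24, 29.2%), and 19.7% at ribosomal protein promoters. Pairs included Snrpa with BC024978 at 22 bp, Sf3a1 with Ccdc157 at 62 bp, Srsf11 (NM_001093752) with Lrrc40 at 65 bp, Hnrnpk with Rmi1 at 82 bp, Srsf5 with Gm20337 at 106 bp, Hnrnpul2 with Ttc9c at 108 bp, Sf3a2 with Plekhj1 at 110 bp and Sf3b3 with Cog4 at 222 bp. At these pairs the upstream flank used for the NDR value lies beyond the start of the partner.

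Among high-coverage members, 14 of 18 with the ETS core CCGGAAG and 17 of 18 without it were depleted. Among active promoters the shares were 70.8% of 1404 with it and 59.7% of 5054 without it.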
